A study of Rattus norvegicus with 10 samples.

Results

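Phase II conjugation enzymes attach a polar group to drugs, steroids, bile pigments and reactive metabolites, which are then carried out of the hepatocyte. They were taken here as every gene whose symbol starts with Ugt1, Ugt2, Sult, Gsta, Gstm, Gstt, Gstp, Gstk, Gsto or Mgst and which had a probe set with that symbol alone. This gave 43 of the 14217 genes measured, of which 8 were UDP-glucuronosyltransferases (UGT), 13 sulfotransferases (SULT) and 22 glutathione S-transferases (GST). The livers came from 10 male Wistar rats, all made cirrhotic by breathing the liver toxin CCl4. Vehicle was given to 5 of them, and the other 5 received CVX-060, an inhibitor of the vascular growth factor Ang2, at 10 mg/kg into the tail vein once a week for 4 weeks. Whole liver RNA of each rat was hybridized to its own Affymetrix rat expression array, so a value here is a log2 signal of 1 probe set in 1 rat, and a difference is the mean of CVX-060 rats minus the mean of vehicle rats on that scale. Both groups carried the same injury and no healthy liver was analysed here, so these differences compare cirrhotic livers only.

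UGTs join glucuronic acid from UDP-glucuronate to bilirubin, steroids, bile acids and many drugs in the endoplasmic reticulum. SULTs move a sulfate group from PAPS to phenols, thyroid hormones, estrogens and hydroxysteroids in the cytosol. GSTs join glutathione to electrophiles such as epoxides and lipid aldehydes, and the MGST enzymes do so in membranes. In rat liver several of these enzymes differ between the sexes under the control of growth hormone, and several GST genes are induced through the antioxidant response element, the binding site of NRF2.

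The livers carried the markers of hepatocytes, with 12 of 13 measured hepatocyte genes above background in all 10 rats. Background was set on each array by 20 probe sets of receptors for smell, pheromones and trace amines, at their 95th percentile, between 5.34 and 6.06. A pair of animals, rat 2 of the vehicle group and rat 5 of the CVX-060 group, lay far from the rest. Their scores on the first principal component over all genes were 34.5 and 35.5, against -26.2 to 9.74 in the others. Results that rest on these animals are given with and without them. All 8 measured markers of sinusoidal endothelium and all 8 of macrophages had higher means with CVX-060 (medians 0.35 and 0.25), 0 of them had an adjusted p under 0.05 in limma, and 3 had an unadjusted one, Lyve1, Mrc1 and C1qc. Over all genes, 52.6% had higher means with CVX-060 and 2.44% had an unadjusted p under 0.05 in limma. In whole tissue, a change in the number of cells of a type and a change in RNA per cell cannot be told apart.

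No phase II gene passed the test between CVX-060 and vehicle. In limma with Benjamini-Hochberg adjustment over all 14217 genes, 0 genes had an adjusted p under 0.05 (0.0%), the lowest being 0.99997, and 0 of 43 members did. At an unadjusted p under 0.05, 347 genes were found (2.44%), 180 higher and 167 lower with CVX-060, and again 0 of 43 members. The groups did not overlap for 69 genes (0.485%) and for 0 members. With CVX-060, 19 members had a higher mean and 24 a lower one, with a median difference of -0.002, while 52.6% of all genes were higher with a median of 0.006. The median size of a difference, whatever its sign, was 0.0728 for the members and 0.0736 for all genes.

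**Figure D1:**
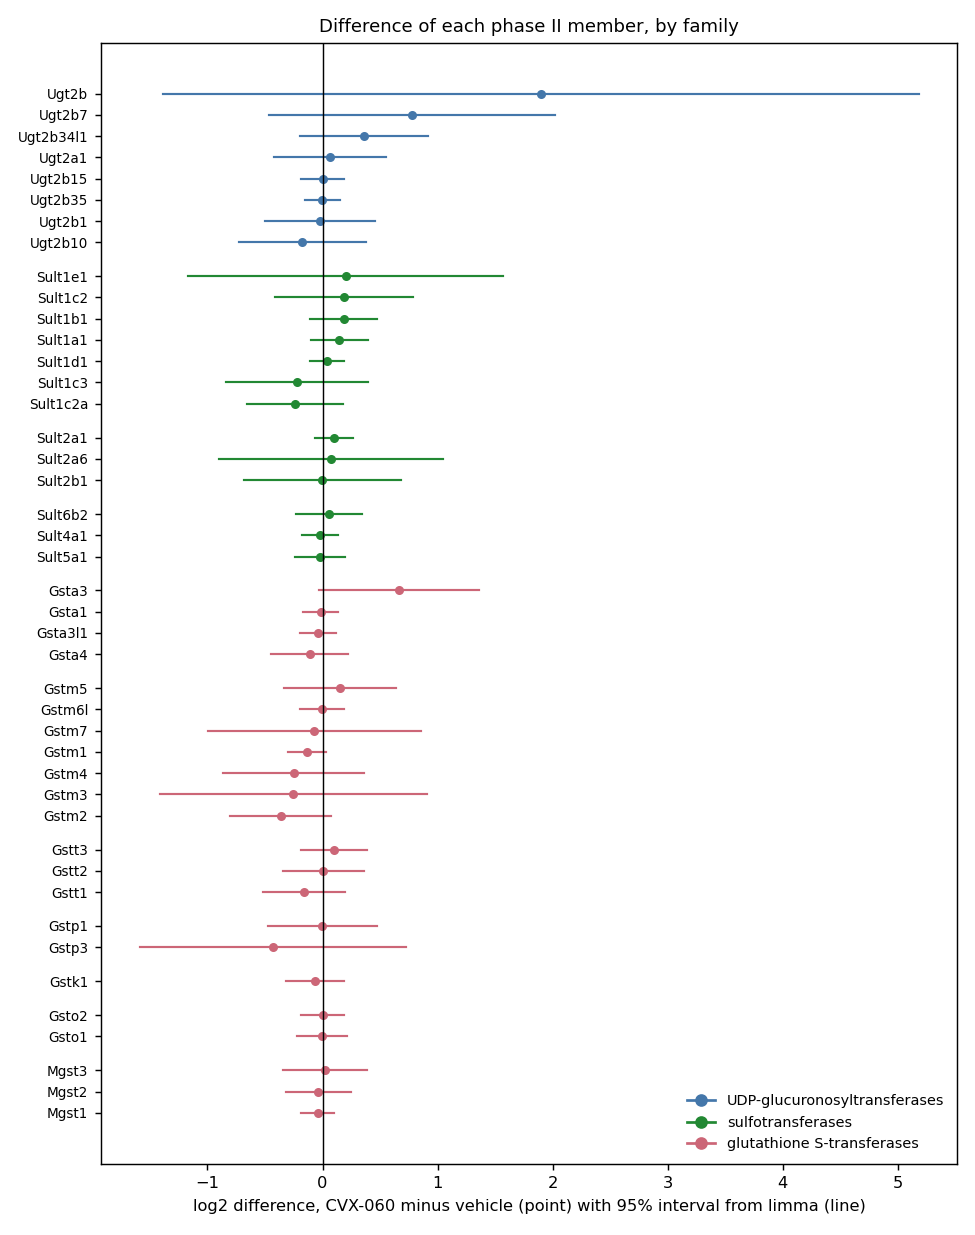
Log2 difference of each of the 43 members, CVX-060 minus vehicle (x axis; points), with its 95% interval from limma (lines), grouped by enzyme family (y axis) and coloured by superfamily. Every interval includes 0, and Ugt2b, with a difference of 1.90, has the widest interval, from -1.39 to 5.18.

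By superfamily, 5 of 8 UGTs were higher in mean with CVX-060 (median 0.03), as were 8 of 13 SULTs (median 0.06) and 6 of 22 GSTs (median -0.04). Among the finer families, 5 of 7 SULT1 genes, which act on phenols, thyroid hormones and estrogens, were higher with a median of 0.14. The mu class GSTM lay the other way, with 6 of 7 genes lower and a median of -0.13. These are counts of means whose own tests did not pass, and the difference between families was not tested. In 20 members the difference was between -0.07 and 0.07, among them the steady Mgst1, Gsta1 and Ugt2b35. The intervals of these 20 reached from -0.69 at the lowest to 0.68 at the highest, so for the more variable of them a change of that size was not detectable with 5 rats a group. A change over 1.5-fold in the means was seen in 3 members, Ugt2b, Ugt2b7 and Gsta3, against 101 of all genes (0.71%).

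Signals of the members ran from 3.11 to 14.06. They were above background in all 10 rats for 31 of 43 members, namely 5 UGTs, 8 SULTs and 18 GSTs, and in no rat for 5. All genes gave 7526 and 4552 of 14217. The 5 members below background throughout were Sult1d1, Sult2a1, Sult6b2, Gsta3l1 and Gstm6l, and a signal there sets no order between rats. Probe sets bind with different strength, so a lower signal of 1 gene than of another does not show less RNA.

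Several phase II genes varied widely between rats while others hardly varied. The median SD over the 10 rats was 0.270 for the members and 0.179 for all genes. Of all 14217 genes 4552 lay below background in every rat, against 5 of the members. The comparison was not limited to genes above background. Of the 43, 14 lay above the 90th percentile of the SDs of all genes (32.6%) and 6 below the 10th. The 14 were 4 UGTs, 5 SULTs and 5 GSTs. For every gene the probe set of highest variance was taken, but only Ugt2b, Gstt2 and Sult2b1 among the members had more than 1 to choose from. The largest SDs were those of Ugt2b (2.72), Sult1e1 (1.06), Ugt2b7 (1.04), Gstp3 (0.92) and Gstm3 (0.90). Of the 6 steadiest, Sult1d1 and Gsta3l1 were below background in every rat and Sult4a1 in 9, where a small SD says nothing of even expression. The other 3 were above it in all rats, Mgst1, the main microsomal GST of liver (SD 0.071), the alpha class Gsta1 (0.081) and Ugt2b35 (0.083). Their mean signals were 13.95, 13.46 and 13.25, the highest of their families, and the highest mean of any gene was 14.80. Whether signals flatten that high was not tested, so a small SD there need not mean even RNA levels.

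**Figure D2:**
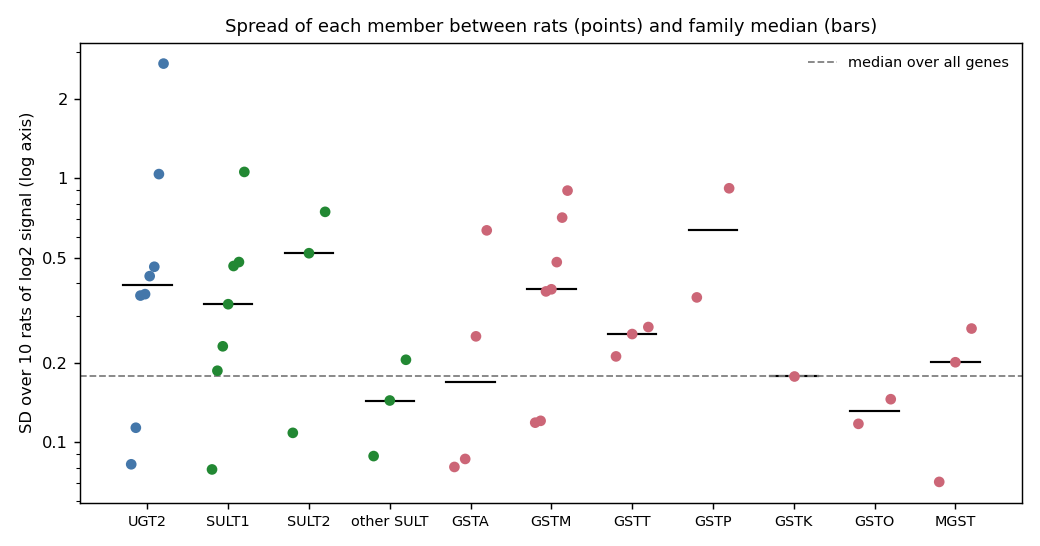
SD over the 10 rats of the log2 signal (y axis, log scale) of each member, by family (x axis); points are genes, black bars family medians, and the dashed line is the median of all genes, 0.179. Ugt2b lies far above the rest at 2.72, and the SULT1 family reaches from 0.079 to 1.06.

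The most uneven member, Ugt2b, was far lower in vehicle rats 1 and 3 than in any other rat. It encodes a glucuronosyltransferase of androgens such as androsterone, also listed as Ugt2b2, and some Wistar rats are known to carry a deletion of it. Its log2 signal was 3.71, 10.48, 4.03, 10.77 and 11.07 in vehicle rats 1 to 5, and 10.06, 10.07, 9.89, 9.45 and 10.06 in CVX-060 rats 1 to 5. Vehicle rats 1 and 3 were thus below background, and the lowest of the other 8 rats was 5.43 log2 units above them. A second probe set of the gene showed the same rats low, with 8.52, 13.37, 9.18, 13.37 and 13.38 with vehicle and 13.22, 13.09, 13.09, 13.05 and 13.32 with CVX-060. There the gap was 3.87 log2 units. The genotype of the rats was not tested.

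Since both low rats were in the vehicle group, Ugt2b had the highest positive difference of all 14217 genes, 1.90 (standard error 1.48), yet an exact two-sided permutation test gave p = 0.444. Without vehicle rat 1 the difference was 0.82 and without vehicle rat 3 it was 0.90, while leaving out any other single rat gave 1.86 to 2.66. The second probe set differed by 1.59.

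The promoter of Ugt2b, the 250 bases before and 50 after its start in RefSeq on GRCr8, chr14:20985199-20985498, plus strand, is shown because this gene carries the widest spread, with a TATAAA match at position -43 in capitals.
Ugt2b: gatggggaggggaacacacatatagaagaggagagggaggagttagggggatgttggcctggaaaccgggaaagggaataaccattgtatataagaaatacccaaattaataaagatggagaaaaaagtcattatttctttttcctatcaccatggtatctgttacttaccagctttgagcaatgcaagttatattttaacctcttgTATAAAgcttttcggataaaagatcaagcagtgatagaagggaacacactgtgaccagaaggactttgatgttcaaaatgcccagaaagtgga

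Some neighbours of Ugt2b were also lowest in vehicle rats 1 and 3, by less, and others were not. In the order of the GRCr8 gene table, chromosome 14 holds Sult1d1, Sult1b1, Ugt2a1, Ugt2b, Ugt2b15, Ugt2b35, Ugt2b7, Ugt2b1, Ugt2b10 and Ugt2b34l1, that is, 10 of the 42 members matched by gene ID. Sult1e1 was not matched, so its place is not given. It was not low in vehicle rats 1 and 3 (13.55 and 13.49). Sult1b1, which sulfates thyroid hormones, had 12.69 in vehicle rat 1 and 12.67 in vehicle rat 3, against 13.06 to 13.35 in the other 8 rats. Ugt2a1, best known from olfactory tissue and below background in 8 of 10 rats, had 4.65 and 5.03 against 5.13 to 5.81. Vehicle rats 1 and 3 were among those 8, so their place as its lowest rats is uncertain. Sult1b1, Ugt2a1 and Ugt2b were consecutive among the matched members in that order. They were the 3 of 43 members with both lowest signals in this pair of rats (6.98%, against 2.34% of all genes). The pair was picked by its Ugt2b signals, so the place of Ugt2b in this count was fixed in advance. The share carries no test. Beyond Ugt2b the next members differed from it. Ugt2b15, which glucuronidates testosterone in rats, had 12.23 in vehicle rat 1 and 12.37 in vehicle rat 3, within the 12.13 to 12.50 of all rats. Ugt2b35 had 13.19 and 13.26 in these animals, and Ugt2b10 had 10.57 and 10.89. Ugt2b1, an enzyme of steroids and phenolic drugs, had 12.56 and 12.72, near its lower end, but CVX-060 rat 3 (12.48) and vehicle rat 5 (12.52) were lower still.

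**Figure D3:**
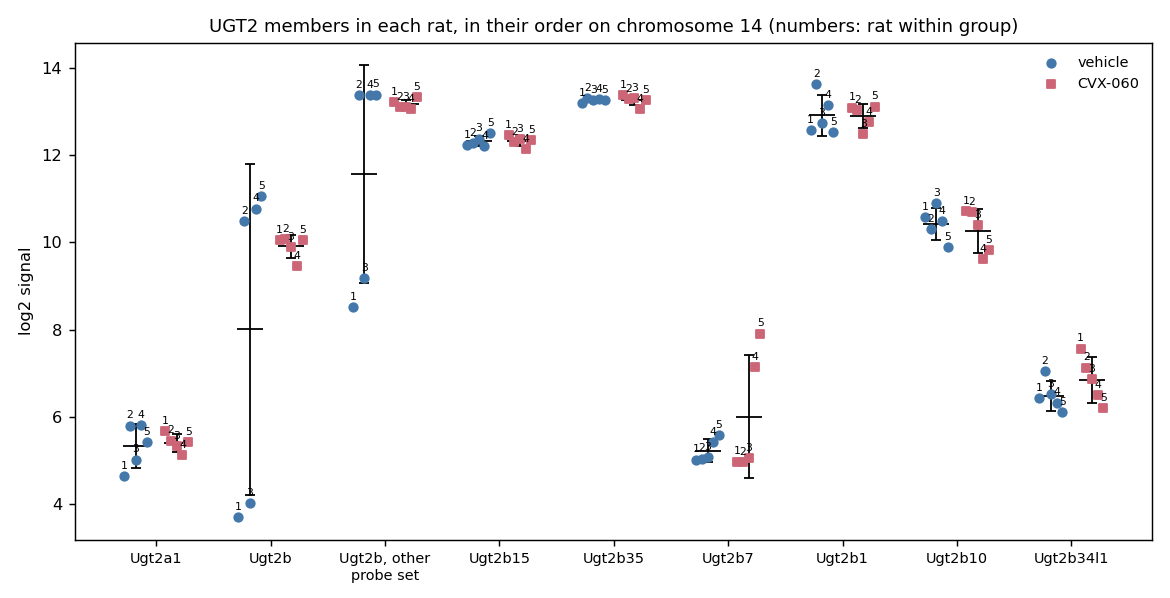
Log2 signal (y axis) of the UGT2 members in each rat, in their order on chromosome 14 (x axis), with vehicle rats as blue circles and CVX-060 rats as red squares; numbers give the rat within its group, and black bars the mean and SD of 5 rats. Vehicle rats 1 and 3 are low on both Ugt2b probe sets, at 3.71 and 4.03 on the one used, and not on Ugt2b15 or Ugt2b35; CVX-060 rats 4 and 5 are high on Ugt2b7.

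Ugt2b7 showed the reverse case, a gene near background in most livers and raised in a pair of CVX-060 rats. Its signals were 5.03, 5.05, 5.08, 5.42 and 5.59 with vehicle and 4.98, 4.96, 5.06, 7.14 and 7.91 with CVX-060. Rats 4 and 5 of the CVX-060 group were the only ones above background, and the other 8 rats lay within 4.96 to 5.59. The difference was 0.78 (standard error 0.56, two-sided exact permutation p = 0.429), which became 0.49 without CVX-060 rat 4 and 0.30 without CVX-060 rat 5. The same animals had the highest signals of the cystine carrier gene Slc7a11 (10.38 and 9.43, others 5.21 to 7.89), the conjugate pump gene Abcc4 (8.17 and 7.83, others 5.07 to 6.72) and the sulfiredoxin gene Srxn1 (9.37 and 9.47, others 6.19 to 8.45), all known NRF2 targets. Of 14 measured NRF2 targets outside the members, 4 were highest in both (those 3 and Cbr1; 28.6%, against 8.10% of all genes), while Ephx1 (12.16) and Aldh1a1 (10.51) were lowest in CVX-060 rat 4. Of the 43 members, 4 were lowest in both, Gsta1, Gstt1, Sult1c2a and Ugt2b10 (9.30%, against 4.63% of all genes). Ugt2b7, by which the pair was picked, was the only member highest in both (2.33%, against 8.10%). The part of the NRF2 targets in the Ugt2b7 signal was not tested.

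Ugt2b34l1 had the next largest UGT difference, 0.36 (standard error 0.25, two-sided exact permutation p = 0.254). It read 6.44, 7.04, 6.52, 6.33 and 6.12 with vehicle against 7.56, 7.13, 6.86, 6.50 and 6.20 with CVX-060, so the groups overlapped over most of their range. With vehicle rat 2 and CVX-060 rat 5 left out the difference was 0.66 (limma adjusted p 0.99986 over all genes). Leaving out CVX-060 rat 1 gave 0.18. Ugt2b10 differed by -0.18, from 10.43 ± 0.37 to 10.25 ± 0.50 (SD, n = 5 each), and by -0.02 without CVX-060 rat 4.

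Among the sulfotransferases, Sult1e1, which inactivates estrogens and is higher in male than in female rat liver, separated the 2 rats that stood apart. Vehicle rats 1 to 5 had 13.55, 10.27, 13.49, 13.58 and 13.29, and CVX-060 rats 1 to 5 had 13.15, 13.41, 13.58, 13.14 and 11.92. Vehicle rat 2 and CVX-060 rat 5 were the low ones, and the other 8 lay within 13.14 to 13.58. The SD over all rats, 1.06, was 0.18 over those 8. The group difference was 0.20 (standard error 0.62, two-sided exact permutation p = 0.944), and it was -0.16 without these animals.

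Sult1c3, a SULT known for the sulfation of N-hydroxy arylamines and for higher levels in males, was lowest in the same animals. It read 12.77, 11.57, 12.71, 12.53 and 12.76 with vehicle and 12.30, 12.38, 12.95, 11.84 and 11.75 with CVX-060, a difference of -0.22 that was -0.32 without both rats and -0.45 to -0.10 as each rat was left out, lowest without vehicle rat 2 and nearest 0 without CVX-060 rat 5. CVX-060 rat 4 was close to rat 5 here. In all, 7 of 43 members had their lowest signals in vehicle rat 2 and CVX-060 rat 5 (16.3%, against 8.23% of all genes), namely Sult1e1, Sult1c3, Gstp3, Gstm7, Gstm2, Gsto1 and Mgst1. Gstm5 alone had both its highest signals there (2.33%, against 9.31% of all genes). These shares describe a pair of animals and carry no test.

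Other genes moved with these animals. Cyp2c11, the male-specific P450 of rat liver, had 8.99 in vehicle rat 2 and 11.42 in CVX-060 rat 5 against 12.69 to 13.93 in the others. Cyp2c12, its female-specific counterpart, had 12.71 and 12.02 against 7.10 to 9.79. The mean of 10 measured male-biased liver genes was 9.57 and 10.39 in them and 11.17 to 12.50 in the others, and 6 of the 10 had both lowest signals there. The mean of 8 female-biased genes was 9.91 in vehicle rat 2, but 8.50 in CVX-060 rat 5, within the 7.58 to 8.70 of the others. Of these 8, Cyp2c12 alone was highest in both animals, and Cyp2c7 was lowest in CVX-060 rat 5 (13.37). They also had the highest mean signals of 7 proliferation markers (6.63 and 6.81, others 5.22 to 5.75), of 9 cholangiocyte markers (6.58 and 6.63, others 5.43 to 6.32) and of 11 stellate and myofibroblast markers (8.22 and 8.27, others 7.33 to 7.95). The mean of 13 hepatocyte markers was 12.44 and 12.37 in them and 12.41 to 12.53 in the others. The part of these genes in the low SULT and GST signals was not tested.

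**Figure D4:**
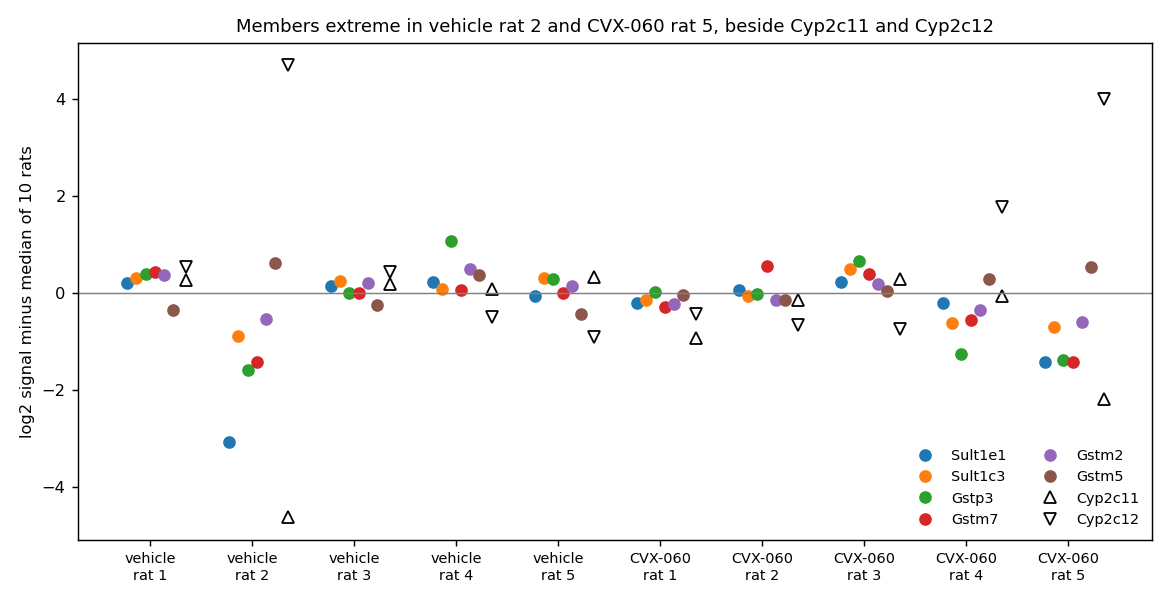
Log2 signal minus the median of the 10 rats (y axis) in each rat (x axis) for 5 members lowest in both vehicle rat 2 and CVX-060 rat 5 and for Gstm5, highest in both (filled circles), beside the male-specific Cyp2c11 and the female-specific Cyp2c12 (open triangles). Sult1e1 and Cyp2c11 lie far below the median in these animals and Cyp2c12 far above it.

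Of the remaining SULT1 genes, Sult1a1, the phenol sulfotransferase, differed by 0.14 (12.93 ± 0.22 to 13.08 ± 0.13, SD, n = 5 each; exact permutation p = 0.262) and Sult1b1 by 0.18 (12.99 ± 0.30 to 13.17 ± 0.11; exact permutation p = 0.286). The Sult1b1 difference followed the low signals of vehicle rats 1 and 3 given above, and it was 0.11 without the first and 0.10 without the second. Its SD over the rats was 0.23, and 0.11 over the other 8. Sult1c2a differed by -0.24, and its lowest signals were those of CVX-060 rats 4 and 5, 9.78 and 9.45, where the vehicle rats had 10.02 to 10.51. It was -0.09 without CVX-060 rat 5. Sult1c2 had a mean difference of 0.19 that came from CVX-060 rat 4, at 8.70 where the other 9 rats lay between 7.06 and 7.76. Without that rat it was -0.07.

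Of the hydroxysteroid sulfotransferases, Sult2a6 varied most. It sulfates steroid alcohols and bile acids. The vehicle rats had 12.10, 13.13, 11.34, 12.35 and 10.94 and the CVX-060 rats 12.87, 12.39, 11.08, 11.57 and 12.31. The highest signal was in vehicle rat 2 and the lowest in vehicle rat 5, so the spread lay within the groups, and the difference was 0.07 (standard error 0.44, two-sided exact permutation p = 0.881). Sult2b1, a sulfotransferase of cholesterol and other 3-beta-hydroxysteroids, was above background in 7 of 10 rats, with signals from 5.63 to 7.05 (SD 0.52). Sult2a1 differed by 0.10 but was below background in every rat. Of the remaining SULT genes, Sult5a1 had 6.59 to 7.04 and was above background in all rats. Sult4a1, a brain sulfotransferase, had 5.39 to 5.62 and was above background in 1 rat.

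In the glutathione S-transferases the largest difference was that of Gsta3, an alpha class gene listed in RefSeq with the synonyms Gsta5 and Yc2, the subunit known for conjugating the epoxide of aflatoxin. Its signals were 10.05, 10.65, 9.18, 9.14 and 9.07 in vehicle rats 1 to 5 and 10.62, 10.61, 9.80, 10.40 and 10.00 in CVX-060 rats 1 to 5. Vehicle rats 3, 4 and 5 were below every CVX-060 rat, vehicle rat 1 lay among them and vehicle rat 2 above all. The difference was 0.67 (standard error 0.31; 95% interval -0.03 to 1.36; two-sided exact permutation p = 0.127). It was 0.92 without vehicle rat 2 and 0.997 without both rats that stood apart, and its adjusted p over all genes was then 0.91049 and 0.99986 in limma. The clock gene Bmal1 was also uneven between the rats, with 7.90, 7.94, 5.13, 4.87 and 4.88 with vehicle and 8.38, 8.75, 8.17, 5.75 and 5.21 with CVX-060. With the Bmal1 signal as a covariate the Gsta3 difference was 0.40.

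Gsta1, the next gene on chromosome 9 and also of the alpha class, was steady at 13.31 to 13.63 over all rats (SD 0.081). At so high a signal a small SD need not mean even RNA levels, as said above. Gsta4, which conjugates the lipid aldehyde 4-hydroxynonenal, had 11.28, 11.35, 11.29, 11.34 and 10.94 with vehicle and 11.37, 11.28, 11.41, 10.64 and 10.96 with CVX-060, a difference of -0.11. The promoters of Gsta3 and Gsta1 are shown side by side because neighbouring genes of 1 class differed in spread. Both are from RefSeq on GRCr8, 250 bases before to 50 after the start, Gsta3 at chr9:31154739-31155038 on the plus strand and Gsta1 at chr9:31216483-31216782 on the minus strand. Capitals mark the core of the antioxidant response element, TGACNNNGC, at position -17 in Gsta3 and 31 in Gsta1, and the HNF1 motif GTTAAT, read on the other strand as ATTAAC, at -45 and 3. In Gsta1 they also mark TATAAA on the other strand, at -176.
Gsta3: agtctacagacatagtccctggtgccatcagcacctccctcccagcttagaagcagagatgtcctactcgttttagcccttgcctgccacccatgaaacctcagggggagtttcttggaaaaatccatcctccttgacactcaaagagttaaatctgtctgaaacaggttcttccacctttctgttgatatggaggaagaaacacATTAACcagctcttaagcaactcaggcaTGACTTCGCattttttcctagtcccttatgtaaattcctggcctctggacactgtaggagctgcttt
Gsta1: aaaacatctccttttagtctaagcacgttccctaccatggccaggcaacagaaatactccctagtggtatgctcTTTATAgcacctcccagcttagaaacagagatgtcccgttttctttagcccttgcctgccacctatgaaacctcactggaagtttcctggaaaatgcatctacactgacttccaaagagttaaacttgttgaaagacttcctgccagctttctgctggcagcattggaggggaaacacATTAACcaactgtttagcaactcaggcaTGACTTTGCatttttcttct

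The mu class held the smallest exact p among the members. Gstm1, one of the abundant mu class subunits of rat liver, had 13.31, 13.09, 13.30, 13.34 and 13.28 with vehicle and 13.09, 13.04, 13.20, 13.03 and 13.28 with CVX-060. Vehicle rat 2 alone made the groups overlap, since CVX-060 rat 5 at 13.278 lay just under vehicle rat 5 at 13.280, and the difference was -0.13 (standard error 0.08, two-sided exact permutation p = 0.0714). Gstm2, its neighbour and another mu class subunit, had 12.22, 11.31, 12.05, 12.34 and 11.98 with vehicle and 11.61, 11.71, 12.02, 11.49 and 11.25 with CVX-060. Vehicle rat 2 was again low in its group, and the difference was -0.36 (standard error 0.20, two-sided exact permutation p = 0.127). Without both rats that stood apart the differences were -0.22 for Gstm1 and -0.44 for Gstm2, with a limma adjusted p of 0.99986 over all genes for each. When all rats were quantile normalized again, the differences were -0.09 for Gstm1 and -0.36 for Gstm2.

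Gstm3 was the most variable mu class gene, with 8.98, 9.45, 7.93, 8.41 and 7.33 in vehicle rats and 8.10, 9.26, 6.47, 8.40 and 8.60 in CVX-060 rats. CVX-060 rat 3 was lowest and vehicle rat 2 highest, 7.85-fold apart, the SDs within the groups were 0.83 and 1.04, and the difference was -0.25. Gstm7 had 9.25, 7.41, 8.83, 8.88 and 8.83 against 8.54, 9.39, 9.22, 8.27 and 7.41, was lowest in both rats that stood apart and differed by -0.07. Its SD fell from 0.71 to 0.38 when those were left out. Gstm4 differed by -0.25, from 10.17 ± 0.43 to 9.92 ± 0.55 (SD, n = 5 each), by -0.45 without CVX-060 rat 3 and by -0.11 without vehicle rat 1. Gstm5 was above background in 2 of 10 rats, vehicle rat 2 at 5.89 and CVX-060 rat 5 at 5.82 being its highest, and differed by 0.15.

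**Figure D5:**
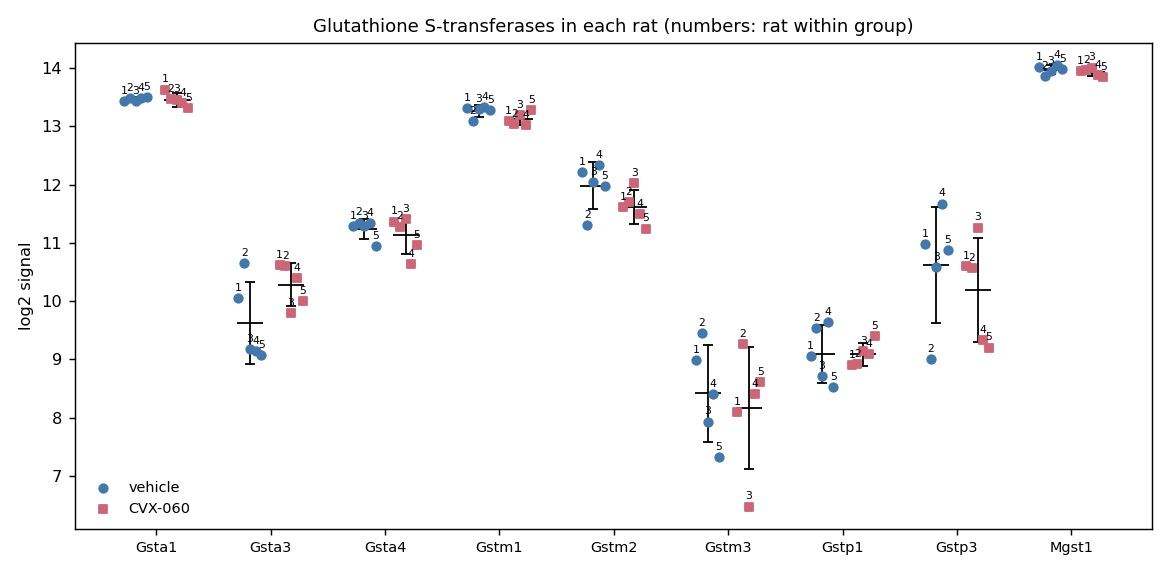
Log2 signal (y axis) of 9 glutathione S-transferases (x axis) in each rat, with vehicle rats as blue circles and CVX-060 rats as red squares; numbers give the rat within its group, and black bars the mean and SD of 5 rats. Gsta1 stays within 13.31 to 13.63 and Mgst1 within 13.84 to 14.06, while Gstm3 runs from 6.47 to 9.45 and Gstp3 from 9.0005 to 11.68, and the groups overlap for every gene shown.

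The pi class genes, neighbours on chromosome 1, were both highest in vehicle rat 4 but lay on opposite sides in vehicle rat 2 and CVX-060 rat 5. Gstp1, the placental form known as a marker of altered foci in rat liver and of bile duct cells, had 9.05, 9.54, 8.71, 9.64 and 8.52 with vehicle and 8.91, 8.92, 9.15, 9.09 and 9.39 with CVX-060, a difference of -0.001. Vehicle rats 4 and 2 and CVX-060 rat 5 were its highest, and the same 3 rats had the highest mean of the 9 cholangiocyte markers (6.32, 6.58 and 6.63, others 5.43 to 6.15), of which 3 were above background in all rats. Those rats also had the highest means of the 11 stellate and myofibroblast markers (7.95, 8.22 and 8.27, others 7.33 to 7.93). The duct marker Krt19 was highest in CVX-060 rats 4 and 1 instead (6.55 and 6.49). The part of either cell type in the Gstp1 signal was not tested. Gstp3 had 10.98, 9.0005, 10.58, 11.68 and 10.88 with vehicle and 10.61, 10.57, 11.26, 9.33 and 9.20 with CVX-060. Its low rats were vehicle rat 2 and CVX-060 rats 4 and 5, and the difference was -0.43 (standard error 0.52, two-sided exact permutation p = 0.476), the most negative of the members. It was -0.59 without both rats that stood apart, -0.84 without vehicle rat 2 and -0.17 without vehicle rat 4.

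The promoters of Gstp1 and Gstp3 are given for the same reason, both from RefSeq on GRCr8 and on the minus strand of chromosome 1, Gstp1 at chr1:210769656-210769955 and Gstp3 at chr1:210787635-210787934. Capitals mark the antioxidant response element core in Gstp1, at position -61. None of the motifs marked in capitals was found in this window of Gstp3.
Gstp1: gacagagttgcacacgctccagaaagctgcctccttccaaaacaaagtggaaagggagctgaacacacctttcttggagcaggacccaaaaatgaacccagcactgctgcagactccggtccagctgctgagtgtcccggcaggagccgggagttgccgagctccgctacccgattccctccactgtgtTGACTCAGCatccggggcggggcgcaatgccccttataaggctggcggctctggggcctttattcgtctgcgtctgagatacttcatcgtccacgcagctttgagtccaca
Gstp3: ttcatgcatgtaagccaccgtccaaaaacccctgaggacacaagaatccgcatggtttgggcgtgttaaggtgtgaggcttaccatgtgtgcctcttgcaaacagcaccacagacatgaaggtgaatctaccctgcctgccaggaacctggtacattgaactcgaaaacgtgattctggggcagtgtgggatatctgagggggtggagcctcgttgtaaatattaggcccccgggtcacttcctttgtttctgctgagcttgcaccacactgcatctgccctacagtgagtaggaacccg

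Promoters were listed for 36 of the 43 members. On either strand, TGACNNNGC was found in 5 of the 36 (13.9%), Gsta1, Gsta3, Gstm5, Gstm7 and Gstp1, against 12.2% of 27457 rat promoters of the same length. TATAAA was found in 10 (27.8%, against 14.3%), GTTAAT in 4 (11.1%, against 7.37%) and GCGTG, the core bound by the AHR, in 8 (22.2%, against 31.1%). The HNF4 site CAAAGTCCA was found in 0, against 0.375%. A match of letters is not a bound site, and nothing was measured here on binding.

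The theta, kappa, omega and membrane-bound GSTs differed by -0.16 to 0.10 between groups on the probe sets used, and none passed the test. Gstt1, known for handling dihalomethanes, differed by -0.16 (9.87 ± 0.22 to 9.71 ± 0.32, SD, n = 5 each; exact permutation p = 0.349) and Gstt3 by 0.10. The Gstt1 difference was -0.27 without CVX-060 rat 3 and -0.08 without CVX-060 rat 4. Gstt2 was read differently by its probe sets, with a difference of 0.006 on the one used and -0.16 on the other. The one used lay close to background, at 5.97 to 6.88 and above it in 9 rats, while the other read 9.83 to 10.31. Gstk1, a GST of mitochondria and peroxisomes, had 11.84 to 12.40. Gsto1, a thiol transferase that also reduces dehydroascorbate, had 11.63 to 12.13, and Gsto2 had 6.18 to 6.59. Mgst1 had 13.84 to 14.06, Mgst2, which can also make leukotriene C4, 10.70 to 11.43, and Mgst3 10.89 to 11.77.

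The genes that feed and follow conjugation gave the same picture in the test. Of 5 measured genes of UDP-glucuronate supply, 6 of PAPS supply, 12 of glutathione supply, 15 other phase II enzymes, 8 export pumps, 7 hydrolases of conjugates, 14 NRF2 targets and 6 receptor-responsive P450 genes, 0 had an adjusted or an unadjusted p under 0.05 in limma. Papss1, which makes PAPS, was 7.38 ± 0.33 with vehicle and 7.76 ± 0.43 with CVX-060 (SD, n = 5 each; exact permutation p = 0.151). Chac2, which breaks down glutathione, was 8.48 ± 0.34 and 8.12 ± 0.24 (exact permutation p = 0.0952). Among the 17 measured regulators of phase II genes, 14 were lower in mean with CVX-060 with a median of -0.15, and 0 passed at either level. Of all 14217 genes, 6743 were lower. Only 9 of the 17 regulators were above background in all rats, and 3 were in none. The glucocorticoid receptor gene Nr3c1 had the smallest p of the 17 in limma, with 10.16 ± 0.16 against 9.90 ± 0.29 (exact permutation p = 0.127). The methyltransferase gene Inmt, in the list of other phase II enzymes, was the extreme case of the pair that stood apart, with 5.39 in vehicle rat 2 and 4.86 in CVX-060 rat 5 against 8.58 to 11.20 in the other 8.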

How the data were processed

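Whole liver RNA, 150 ng per rat, of 5 vehicle and 5 CVX-060 rats was measured, each rat being a biological replicate. The paper states that it kept only part of the replicates of each treatment, after quality control and a principal component plot. Its text does not say which rats those were, and all 10 rats were used here. In the deposited table each probe set has a log2 signal in each rat, which the authors normalized across the arrays (medians 5.52 to 5.57). Per the submitters' processing notes, R 3.4.0 was used with affy 1.56.0 and limma 3.38.2. How background was corrected and probes were summarised is not given in the sources used here, no further scaling was applied, and the number of arrays limits the precision.

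Of 31099 probe sets, 20826 carried 1 symbol and covered 14217 genes. Each gene was read from its most variable probe set over the 10 arrays. The groups were compared in limma 3.58.1 under R 4.3.3 (lmFit, eBayes), and p-values were adjusted by Benjamini-Hochberg across the genes. For single genes a two-sided permutation test was added, exact over 252 splits, with 0.0079 as the smallest p it can give. The limma step was tested on simulated data. Tables and plots used matplotlib 3.10.9, scipy 1.17.1, pandas 2.3.3 and numpy 2.4.6 in Python 3.11.15.

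The members and gene lists were chosen with earlier results of these data known. Genes were named where they had the smallest p of their family, a large SD, the highest mean of their family or a well-known role. Full per-rat values were given for members that varied most or differed most, and each alternative was followed gene by gene for the 23 members with a difference of at least 0.1 in size or an SD among the 8 largest. Names, order and promoters came from RefSeq tables on GRCr8, with 42 members matched by gene ID. Correlations between members over rats are not given, because a pair of rats lay far from the rest. Other probe sets, filters, scalings, array weights, a variance prior with trend, covariates, a replicate block and leaving out rats were tried as alternatives. Of the sulfotransferases, 1 gene is not reported here. Protein sequences were not used here.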

Additional observations from a re-analysis of the deposited data

Results flagged for a closer look

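Within each group of 5 rats, the highest or lowest rat was looked at for its gap to the nearest rat, divided by the range of the group. Of 86 such groups, 2 for each member, 9 held a rat whose gap was over 0.71 of the range. For normally distributed values chance gives about 1 in 20 groups. The members were read on the same 10 arrays, so the 86 groups are not independent and their count carries no test. Of the 9, 6 were in vehicle rat 2 or CVX-060 rat 5. Vehicle rat 2 was far below the rest of its group for Sult1e1 (10.272, nearest 13.293), Sult1c3 (11.573, nearest 12.53), Gstm7 (7.414, nearest 8.827) and Gstm1 (13.088, nearest 13.28). CVX-060 rat 5 was low for Sult1e1 (11.917, nearest 13.136) and high for Sult6b2 (4.959, nearest 4.4), a gene below background in every rat. Vehicle rat 5 was low for Gsta4 (10.945, nearest 11.284). CVX-060 rat 4 was low for Ugt2b (9.454, nearest 9.894). CVX-060 rat 2 was high for Sult1d1 (3.446, nearest 3.294), also below background throughout. The split of Ugt2b in the vehicle group is not among these, since 2 of its 5 rats were low together.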

How the results depend on the processing

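Under 21 alternatives of the fit, 0 genes and 0 members had an adjusted p under 0.05 in limma. At an unadjusted p under 0.05, where 0 of 43 members stood, array weights gave 4 (Gsta3, Gstm1, Gstm2 and Ugt2b34l1; 4.83% of all genes), leaving out both rats that stood apart gave 4 (the same genes; 4.09%), the Bmal1 covariate gave 1 (Ugt2b7; 5.74%), and leaving out each rat in turn gave 0 to 4. The 4 came without vehicle rat 2, with Sult1b1 in place of Ugt2b34l1 (5.02%). The groups share replicate numbers in the labels, but same-numbered rats did not deviate together (correlations across genes of -0.1733 to 0.1526, and 1 of 5 rats correlated best with its own number). The fit with the replicate block gave 1 member at an unadjusted p under 0.05, Gsta3 (2.74% of all genes).

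Signs turned for Gstm3 (0.0345 with array weights), Sult1e1 (-0.0517 with array weights, -0.16 without both rats that stood apart), Gstt3 (-0.0119 with the Bmal1 covariate), Sult2a6 (-0.16 with that covariate) and Gstm7 (0.0598 with the hepatocyte marker mean as a covariate). Leaving out each rat in turn gave -0.19 to 0.0114 for Gsta4, -0.53 to 0.17 for Gstm3, -0.38 to 0.22 for Gstm7, -0.0712 to 0.34 for Sult1c2, -0.44 to 0.48 for Sult1e1 and -0.19 to 0.36 for Sult2a6. The UGT median ran from -0.02 to 0.17. Keeping their sign as each rat was left out, Sult1a1 ran from 0.09 to 0.22, Gstt3 from 0.03 to 0.16, Sult2a1 from 0.05 to 0.14 and Gstm5 from 0.05 to 0.31. Of the other 20 members, all with a difference under 0.1 in size, 17 turned sign under some alternative. Above the 90th and 99th percentiles of background in all rats lay 34 and 26 members. With 5 rats a group, a missed threshold does not show that levels were equal.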

Other observations

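The UGT1A enzymes, which conjugate bilirubin and many drugs, share their last exons, and no probe set carried a single symbol of that family. A pair of probe sets lists 8 UGT1A genes each. The first read 12.94 ± 0.20 with vehicle and 12.99 ± 0.21 with CVX-060 (SD, n = 5 each; exact permutation p = 0.730), and the second 12.06 ± 0.26 and 12.09 ± 0.35 (exact permutation p = 0.865). They give the sum of the family's transcripts with a common end and no single gene. A probe set shared by 2 alpha class GST genes read 13.06 ± 0.20 with vehicle and 12.85 ± 0.34 with CVX-060 (exact permutation p = 0.278), and its lowest rat was CVX-060 rat 4 at 12.33.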
